A study of Solanum chacoense with 24 samples.

Results

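EE501F2_093 is an F2 individual of the diploid wild potato species Solanum chacoense, from the cross of a plant line that resists the Colorado potato beetle with one that does not. The labels call EE501F2_093 susceptible to the beetle. They call its parent USDA8380-1 resistant, and its inbred parent M6 susceptible. Leaf RNA of EE501F2_093 was compared with leaf RNA of each parent, and each gene model was classed by where its level in EE501F2_093 lay relative to the 2 parental levels. EE501F2_093 gave 3 of the 24 libraries of the study, USDA8380-1 gave 3 and M6 gave 3, and the other 15 came from 5 further F2 lines. The classes rest on these 9 libraries. Those of the other F2 lines enter refits given beside them, levels given for some named models, and the comparisons of F2 lines at the end. No plant of any group was treated: all were raised from in vitro culture and kept in a growth chamber at 20 °C with 16 h of light and 70% relative humidity. RNA came from leaflets of the fourth fully expanded leaf, 16 weeks after transplanting, with an RNA integrity number of at least 8. Each library, with n = 3 per line throughout, stands for 1 plant of a single genotype, so the p-values rest on how far such plants differ within these 3 lines and do not speak of beetle resistance in the cross. Whether USDA8380-1 is inbred is not given in the sources used here.

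An F2 plant carries, at each place in its genome, both copies from 1 grandparental line or 1 copy from each. Where regulatory sequence next to a gene sets its level, the level of an F2 plant tends to follow the copies it inherited there. Where factors encoded elsewhere set it, the level can follow another region of the genome. Levels outside the range of both parents are called transgressive and are a known feature of segregating crosses. In S. chacoense, glycoalkaloids of the leaf, among them the leptines of some accessions, are known deterrents of the beetle. The deposited table names its gene models by identifier alone, and no list that pairs them with gene names or functions was used here, so glycoalkaloid genes, other defence genes and markers of leaf or other tissues could not be looked up.

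The libraries of EE501F2_093 were the deepest of the study, with total counts of 77078776, 60713423 and 68923012. Those of USDA8380-1 had 27147848 to 30809588 counts, those of M6 had 28385600 to 37687602, and the mean of EE501F2_093 was 2.23 times the mean of the 6 parental libraries. At full depth 22721 to 23675 models had at least 1 count in a library of EE501F2_093, against 22371 to 22419 in USDA8380-1 and 21583 to 22286 in M6. With the counts of EE501F2_093 thinned at random to the mean parental total, its libraries had 22276 to 22892 such models. The 100 most abundant models took 31.59% to 33.58% of the counts in EE501F2_093, 35.41% to 35.92% in USDA8380-1 and 25.9% to 28.84% in M6. Plants of a line were about as far apart in EE501F2_093 as in the parents: the median SD of log2 CPM (counts per 1000000 of the scaled library total) was 0.1738 in EE501F2_093, 0.165 in USDA8380-1 and 0.2101 in M6. Of 37740 models in the table, 29786 lay on the 12 chromosomes and 20302 of these had counts enough to be tested.

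EE501F2_093 differed from each parent at about 1 model in 3, and the parents differed from each other at about 1 in 2. At an adjusted p under 0.05 (edgeR, quasi-likelihood), 6887 models differed between EE501F2_093 and USDA8380-1, which is 33.9% of those tested. Of these, 3703 were higher in EE501F2_093 (18.2%) and 3184 were lower (15.7%). Against M6, 7193 models differed (35.4%), with 4019 higher in EE501F2_093 (19.8%) and 3174 lower (15.6%). The parents themselves differed at 10012 models (49.3%), 5076 of them higher in USDA8380-1 (25%) and 4936 lower (24.3%). The 3 comparisons share libraries pair by pair, so their counts are not independent of each other. Fold changes over all tested models were centred near 0, with a median log2 fold change of 0.0212 for EE501F2_093 minus USDA8380-1 and 0.00273 for EE501F2_093 minus M6.

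Many of these differences were large. At 2-fold or more, 3270 models were called against USDA8380-1 (16.1%) and 3214 against M6 (15.8%). Against USDA8380-1, 1929 models were called and at least 2-fold higher in EE501F2_093 (9.5%) and 1341 were at least 2-fold lower (6.61%). At 16-fold or more there were 323 higher models (1.59%) and 241 lower ones (1.19%). Against M6 the counts at 2-fold were 2018 higher (9.94%) and 1196 lower (5.89%), and at 16-fold 355 higher (1.75%) and 156 lower (0.768%). On both sides, higher models outnumbered lower ones at each of these sizes. With the libraries of EE501F2_093 thinned to the mean parental total, 6708 models were called against USDA8380-1 and 6996 against M6. With all 24 libraries in 1 fit the counts were smaller, 4564 against USDA8380-1 and 4480 against M6. In bulk leaf RNA, fewer cells of a type and less RNA per cell cannot be told apart.

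Among models whose higher group averaged 5 CPM or more, the largest differences from a parent were at models that the parent or EE501F2_093 hardly read or did not read at all. The models named here and below follow a fixed rule of size or of p, under that limit where no other is given, and their coordinates are those of the deposited table, whose genome build is not given in the sources used here. Model g18288 (chr9:14175053-14181070, minus strand, 7 exons) had 10.7, 7.18 and 9.65 CPM in the plants of EE501F2_093, 0 counts in all 3 plants of USDA8380-1, and 9.18, 8.97 and 9.15 CPM in M6. EE501F2_093 and M6 overlapped, and USDA8380-1 stood apart. EE501F2_093 was at least 242-fold higher than USDA8380-1, taking a group at 0 at the limit of 3 counts over its 3 libraries (adjusted p = 2.73e-07), and such limits and all counting intervals given here cover counting error only. Model g36188 (chr1:47429312-47429746, minus strand, 1 exon) had 5.58, 5.37 and 10.2 CPM in EE501F2_093, 0 counts in USDA8380-1, and 1.17, 1.82 and 1.37 CPM in M6. Here all 3 plants of EE501F2_093 lay above all plants of both parents. The difference from USDA8380-1 was at least 184-fold (adjusted p = 5.31e-06), and the log2 fold change over M6 was 2.27 ± 0.316 (SE, adjusted p = 0.000515).

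In the other direction, g1387 (chr11:32892482-32893855, plus strand, 2 exons) had 0 counts in every plant of EE501F2_093, 5.49, 6.22 and 6.6 CPM in USDA8380-1, and 0 counts in M6. EE501F2_093 and M6 were alike in having no count, and EE501F2_093 was at least 411-fold lower than USDA8380-1 (adjusted p = 5.65e-06). Model g7648 (chr8:1645353-1645886, minus strand, 1 exon) had 0.0402, 0 and 0 CPM in EE501F2_093, 30.2, 14 and 12.6 CPM in USDA8380-1, and 0 counts in M6. The 3 counts in EE501F2_093 all came from 1 plant. The ratio of EE501F2_093 to USDA8380-1 was 0.000769, with a 95% counting interval of 0.000158 to 0.00225 (adjusted p = 4.08e-06).

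Against M6, the models with the largest rise were read in USDA8380-1 at a similar or higher level. Model g21266 (chr5:18154946-18156957, minus strand, 4 exons) had 11.2, 8.84 and 10.6 CPM in EE501F2_093, 17.8, 18.4 and 19.2 CPM in USDA8380-1, and 0 counts in M6. The 3 lines did not overlap: EE501F2_093 was at least 385-fold above M6 (adjusted p = 6.64e-08) and below USDA8380-1 by a log2 fold change of -0.85 ± 0.138 (SE, adjusted p = 0.00115). Model g28734 (chr10:4942009-4944896, minus strand, 6 exons) had 9.2, 9.49 and 10.8 CPM in EE501F2_093, 13.3, 9.97 and 11.7 CPM in USDA8380-1, and 0 counts in M6. EE501F2_093 and USDA8380-1 overlapped, and EE501F2_093 was at least 366-fold above M6 (adjusted p = 1.25e-07).

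Both models with the largest fall against M6 lay on chromosome 9, and neither had a count in EE501F2_093. Model g19289 (chr9:30364890-30365522, plus strand, 1 exon) had 0 counts in EE501F2_093, 0, 0.0399 and 0 CPM in USDA8380-1, and 18.4, 13.6 and 18 CPM in M6. EE501F2_093 was at least 1110-fold lower than M6 (adjusted p = 1.61e-07), and USDA8380-1 had 1 count. Model g30396 (chr9:32873295-32876155, minus strand, 7 exons) had 0 counts in EE501F2_093, 0, 0.0399 and 0 CPM in USDA8380-1, and 10.1, 7.95 and 12.6 CPM in M6. EE501F2_093 was at least 684-fold lower than M6 (adjusted p = 6.96e-07), so that it and USDA8380-1 lay together, apart from M6.

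**Figure D1:**
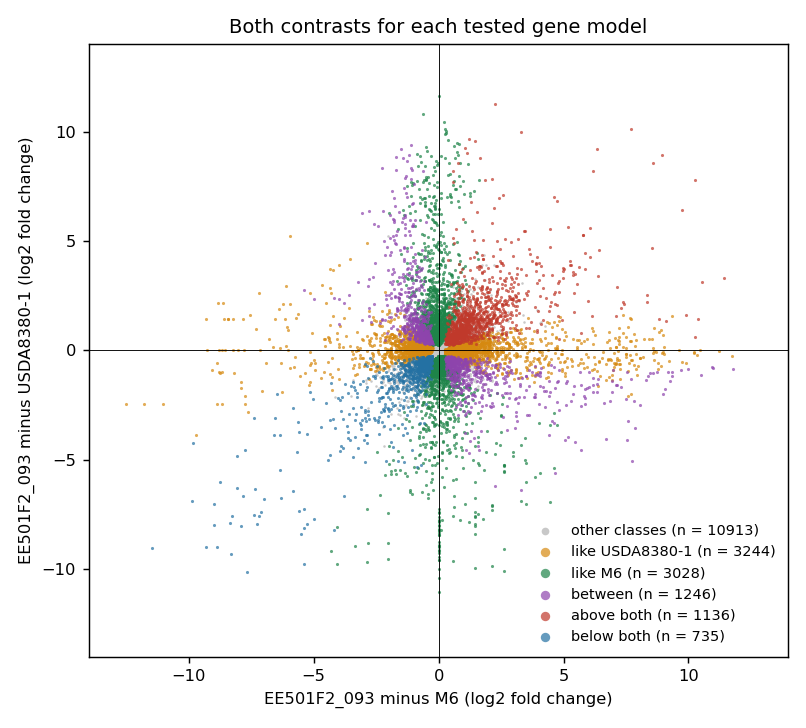
Each point is 1 of 20302 tested gene models, by its log2 fold change in EE501F2_093 minus M6 (horizontal) and EE501F2_093 minus USDA8380-1 (vertical), coloured by class. The 3244 models like USDA8380-1 lie along the horizontal axis, the 3028 like M6 along the vertical axis, the 1246 between in the upper left and lower right, and those above or below both parents in the upper right and lower left.

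EE501F2_093 matched each parent at about equal numbers of models. A model was classed as like USDA8380-1 where the parents differed and EE501F2_093 differed from M6 and not from USDA8380-1. There were 3244 such models (16% of those tested), 1801 with USDA8380-1 the higher parent and 1443 with M6 the higher parent. The mirror class, like M6, held 3028 models (14.9%), 1436 with USDA8380-1 the higher parent and 1592 with M6 the higher parent. The class between, in which EE501F2_093 differed from both parents in opposite directions, held 1246 models (6.14%). Of the 10012 models at which the parents differed, 32.4% were like USDA8380-1, 30.2% like M6, 12.4% between, 3.85% above both and 2.72% below both. At the remaining 18.3% (1837 models, 9.05% of those tested) EE501F2_093 differed from neither parent and was not placed. A further 1574 models (7.75%) differed between EE501F2_093 and 1 parent alone, with no call between the parents, and 7502 (37%) showed no called difference among the 3 lines. Without the first plant of EE501F2_093, 2901 models were not placed and 1041 differed from 1 parent alone. A p that misses the threshold does not show that levels were equal, so being classed as like a parent means only that no difference was detected.

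Outside the parental range, EE501F2_093 was above both parents at 1136 models (5.6%) and below both at 735 (3.62%). Most of these were models at which the parents were not called different from each other, 751 of the 1136 above and 463 of the 735 below. Over all 20302 tested models the parents were not called different at 10290. With all 24 libraries in 1 fit the classes shrank to 497 above both, 354 below both and 526 between, and without the plants of EE501F2_641 the 21 remaining libraries gave 741 above both. With EE501F2_093 thinned to the mean parental total there were 1093 above both and 718 below both.

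**Figure D2:**
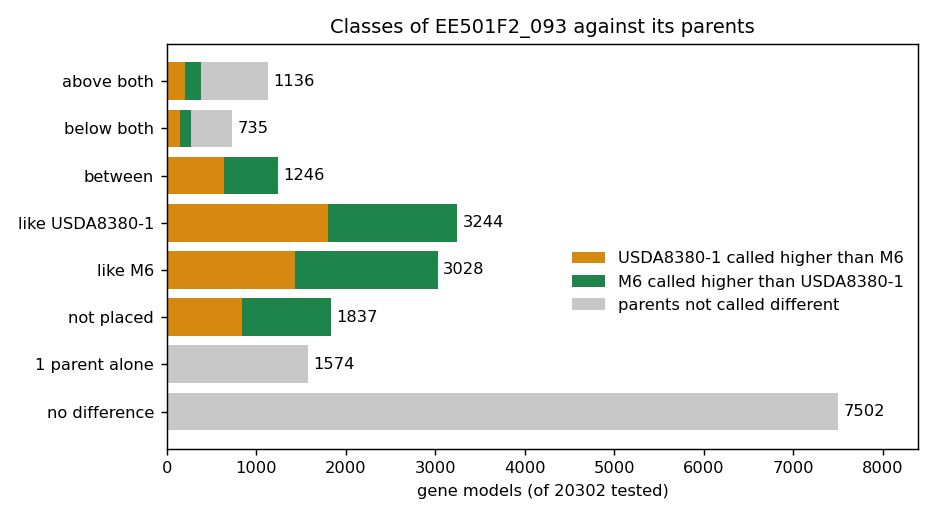
Bars give the number of gene models in each class of EE501F2_093 against its parents, split by the direction of the parental difference. The classes like USDA8380-1 (3244) and like M6 (3028) are of similar size, and models above both (1136) outnumber those below both (735).

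The models like USDA8380-1 named by the smallest p lay on chromosomes 6 and 9. Model g30012 (chr6:21698556-21700262, minus strand, 1 exon) had 15.6, 15.5 and 15 CPM in EE501F2_093, 16.7, 17.7 and 18.6 CPM in USDA8380-1, and 0.0301, 0 and 0 CPM in M6. EE501F2_093 and USDA8380-1 did not overlap but lay close, with a log2 fold change of -0.20 ± 0.137 (SE, adjusted p = 0.288). M6 had 1 count, so that the ratio of EE501F2_093 to M6, 1710, has a 95% counting interval of 307 to 6.77e+04 (adjusted p = 1.14e-08). At g19285 (chr9:30321813-30336284, minus strand, 19 exons) the low level of USDA8380-1 was matched: EE501F2_093 had 0.83, 0.672 and 0.544 CPM, USDA8380-1 had 0.805, 0.279 and 0.829, and M6 had 57.3, 55.1 and 53.4. EE501F2_093 fell by 6.33 ± 0.231 on the log2 scale against M6 (SE, adjusted p = 2.56e-08) and overlapped USDA8380-1.

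Among the models like M6, g33589 (chr12:49865983-49870302, minus strand, 9 exons) had 2.73, 3.12 and 3.99 CPM in EE501F2_093, 69.7, 72.5 and 77.5 CPM in USDA8380-1, and 5.18, 3.66 and 3.38 CPM in M6. EE501F2_093 overlapped M6 and fell by 4.48 ± 0.184 on the log2 scale against USDA8380-1 (SE, adjusted p = 2.74e-08). Model g35455 (chr11:37732022-37735772, plus strand, 4 exons) had 24.2, 20 and 23.3 CPM in EE501F2_093, 0, 0.0399 and 0.0395 CPM in USDA8380-1, and 19.5, 18.2 and 14.8 CPM in M6. EE501F2_093 was 881 times the level of USDA8380-1 (95% counting interval 244 to 7280, adjusted p = 7.8e-09), and every plant of EE501F2_093 lay above every plant of M6, with an adjusted p of 0.0719.

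In the class between, levels in EE501F2_093 on the linear CPM scale lay nearer the lower parent far more often than the higher. On the linear CPM scale, with the lower parent at 0 and the higher at 1, the median position of the 1246 models was 0.381, and 1036 lay nearer the lower parent against 210 nearer the higher. The pattern was the same for both directions of the parental difference: 533 of 637 models with USDA8380-1 higher and 503 of 609 with M6 higher lay nearer the lower parent. The class rule works on log fold changes and asks for a called difference from both parents, which bears on the positions that can enter the class, and no test was made of them. The result depends on the scale, because a log2 scale moves positions between the parents toward the higher one. With M6 at 0 and USDA8380-1, the higher parent, at 1, g32699 stood at 0.444 on the linear scale and 0.862 in log2. The 1246 models were not counted on the log2 scale.

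Model g12591 (chr11:31074054-31078687, minus strand, 6 exons) had 32.5, 41 and 37.9 CPM in EE501F2_093, 167, 158 and 175 CPM in USDA8380-1, and 4.57, 3.85 and 4.75 CPM in M6. The 3 lines were fully apart. EE501F2_093 differed from USDA8380-1 by a log2 fold change of -2.16 ± 0.114 (SE, adjusted p = 1.81e-07) and from M6 by 3.08 ± 0.125 (SE, adjusted p = 4.55e-08). Model g23983 (chr2:32488501-32490621, minus strand, 2 exons) had 12.2, 10.6 and 12.5 CPM in EE501F2_093, 0.256, 0.12 and 0.0395 CPM in USDA8380-1, and 106, 70.9 and 68.6 CPM in M6. It too separated the 3 lines, with log2 fold changes of 6.35 ± 0.342 over USDA8380-1 (SE, adjusted p = 2e-07) and -2.80 ± 0.194 against M6 (SE, adjusted p = 1.61e-06).

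A larger share of the models above both parents had a single exon than of any other class described here. Of the 1136, 302 had 1 exon (26.6%), against 12.8% of the 735 below both, 14% of those between, 15% of those like USDA8380-1, 14.6% of those like M6 and 15.2% of all tested models. The median exonic length was 1413.5 bases above both, 1597 bases below both and 1557 bases over all tested models, and the median number of exons was 3 above both, 4 below both and 4 over all. Exon number and length did not enter the class rule. These shares are descriptions and were not tested. The distance of the 1136 from the nearer parent had a median of 0.973 on the log2 scale, with 554 at least 2-fold (48.8%) and 175 at least 4-fold above it. The 735 below both lay nearer, at a median of 0.712, with 257 at least 2-fold (35%) and 114 at least 4-fold below the nearer parent. In 1084 of the 1136 every plant of EE501F2_093 was above every parental plant, and in 692 of the 735 every plant was below. The calls that made these classes used the same libraries, so this separation follows largely from the class rule and adds no support.

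As a share of all counts, models above both made up 6.77% of CPM in EE501F2_093, against 3.27% in USDA8380-1 and 3.84% in M6. Models below both made up 1.89% in EE501F2_093, 3.02% in USDA8380-1 and 3.48% in M6. The class rule fixes the direction of these differences and only their size is a description. Models like USDA8380-1 held 29.1% of CPM in EE501F2_093, 28% in USDA8380-1 and 24.3% in M6, and models like M6 held 12.8% in EE501F2_093, 15.3% in USDA8380-1 and 14.5% in M6.

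Among models above both parents with at least 5 CPM in EE501F2_093, g36167 (chr8:5367074-5367502, plus strand, 3 exons) was farthest above the nearer parent. It had 17, 18.1 and 17.1 CPM in EE501F2_093, 0, 0 and 0.0395 CPM in USDA8380-1, and 0.181, 0.0485 and 0.0268 CPM in M6. The plants of EE501F2_093 were close together and far above both parents. The log2 fold change was 7.70 ± 0.364 over M6 (SE, adjusted p = 1.06e-07), and the ratio to USDA8380-1, which had 1 count, was 1350 with a 95% counting interval of 241 to 5.32e+04 (adjusted p = 9.26e-08). The high level was shared with other F2 lines. With all 24 libraries scaled together, EE501F2_093 averaged 18.4 CPM. EE501F2_089 had 46.3, EE501F2_099 23.6, EE501F2_516 23.1, EE501F2_641 30.9 and EE501F2_500 0.0477 CPM. Model g5644 (chr1:37594691-37595254, minus strand, 1 exon) had 4.58, 3.05 and 11.7 CPM in EE501F2_093, 0.293, 0 and 0.197 CPM in USDA8380-1, and 0.12, 0.0969 and 0.134 CPM in M6. Its plants of EE501F2_093 were more spread but all above both parents, by a log2 fold change of 5.25 ± 0.688 over USDA8380-1 (SE, adjusted p = 0.000142) and 5.76 ± 0.689 over M6 (SE, adjusted p = 8.54e-05). It overlaps 1 other model in coordinates, and the strand setting of the counting is not given in the sources used here, so its reads and those of the other model could not be separated. At g5644 the other F2 lines averaged 0.0111 CPM (EE501F2_089) to 4.69 CPM (EE501F2_500), under the 6.83 CPM of EE501F2_093 at that scaling. The SD was 5.29 CPM in EE501F2_500 and 4.89 CPM in EE501F2_093 (n = 3 each), so the means of these lines cannot be separated.

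Among models below both that averaged 5 CPM or more in each parent, g38016 (chr4:25414654-25418987, plus strand, 5 exons) was farthest below the nearer parent. It had 0.187, 0.0517 and 0.0143 CPM in EE501F2_093, 30.5, 19.8 and 21.4 CPM in USDA8380-1, and 16.8, 25.1 and 24.1 CPM in M6. The parents overlapped and EE501F2_093 lay far under both, by a log2 fold change of -8.03 ± 0.419 against USDA8380-1 (SE, adjusted p = 1.69e-07) and -7.92 ± 0.417 against M6 (SE, adjusted p = 2.27e-07). With all 24 libraries scaled together, EE501F2_089 was also low, at 0.0527 CPM. The other F2 lines had 15.5 CPM in EE501F2_099, 14.2 in EE501F2_500, 5.61 in EE501F2_516 and 23 in EE501F2_641. Model g37563 (chr11:9721316-9723067, plus strand, 4 exons) had 0.0268, 0.103 and 0 CPM in EE501F2_093, 7.5, 5.58 and 10.5 CPM in USDA8380-1, and 4.69, 8.72 and 8.13 CPM in M6. Again the parents overlapped, and EE501F2_093 differed by a log2 fold change of -7.52 ± 0.558 from USDA8380-1 (SE, adjusted p = 2.18e-06) and -7.40 ± 0.557 from M6 (SE, adjusted p = 2.98e-06). Here EE501F2_500 had 0 counts and EE501F2_516 0.0106 CPM, while EE501F2_089 had 1.38, EE501F2_099 2.44 and EE501F2_641 6.2 CPM.

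**Figure D3:**
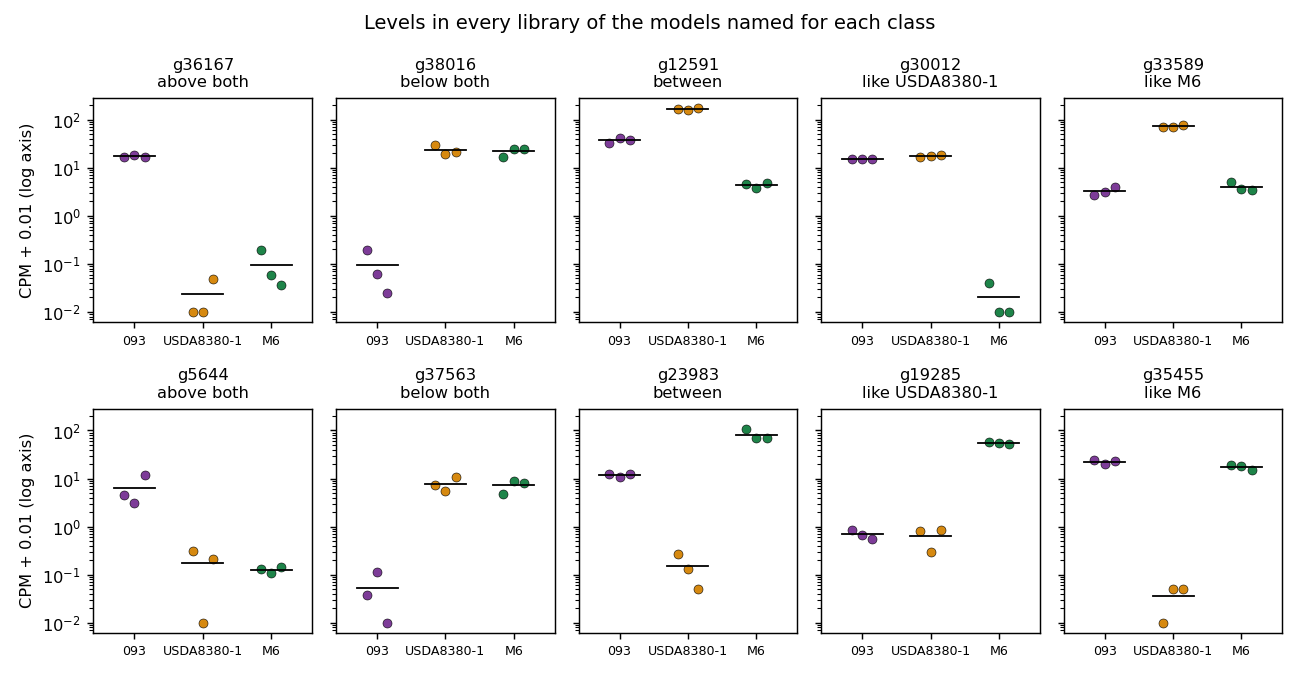
Points are the 3 libraries of EE501F2_093 (093), USDA8380-1 and M6 for 2 models of each class, as CPM plus 0.01 on a log axis, and lines are means. At g36167 and g5644 all plants of EE501F2_093 lie above the parents, at g38016 and g37563 all lie below, and at g12591 and g23983 all lie between.

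Whether EE501F2_093 resembled USDA8380-1 or M6 varied along the genome. A parental state was computed for 2317 models that differed between the parents by at least 4-fold: the height of EE501F2_093 above M6 in log2 CPM as a fraction of the height of USDA8380-1 above M6, so that 0 is the M6 level and 1 the USDA8380-1 level. The levels of EE501F2_093 did not choose these models. Their median state was 0.405 (interquartile range 0.11 to 0.809), and the 3 plants had medians of 0.458, 0.385 and 0.39. Of the models, 861 had a state under 0.25 (37.2%), 781 lay from 0.25 to 0.75 (33.7%) and 675 lay over 0.75 (29.1%), with 315 under 0 and 282 over 1. The state also depends on which parent is higher, since a midway level in CPM lies near the higher parent in log2. At g303, with USDA8380-1 higher, a fraction of 0.529 in CPM was a state of 0.867. At g281, with M6 higher, 0.555 in CPM was a state of 0.14. Both are classed between, so outer states and medians by region can include intermediate levels.

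By chromosome the median state was highest on chromosome 7, at 0.764 over 175 models, with plants at 0.811, 0.718 and 0.776. Chromosome 6 followed with 0.671 over 209 models, chromosome 8 with 0.662 over 136 and chromosome 9 with 0.634 over 177. The plants of EE501F2_093 differed by more than the gaps between chromosomes 6, 8 and 9, so these neighbours in the order cannot be separated. The lowest states were on chromosome 3, at 0.196 over 205 models, chromosome 10, at 0.197 over 160, and chromosome 4, at 0.232 over 171. On chromosome 10 the plants had 0.213, 0.176 and 0.152, all far under every plant on chromosome 7. Chromosomes 11, 12, 2, 5 and 1 lay between, at 0.316, 0.34, 0.373, 0.414 and 0.447.

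The class counts run the same way, though they draw on the same libraries. On chromosome 7, 360 models were like USDA8380-1 and 155 like M6, and on chromosome 6 there were 395 and 197. On chromosome 10, 148 were like USDA8380-1 and 263 like M6, and on chromosome 3 there were 266 and 372. Over all chromosomes 51.7% of models like 1 parent were like USDA8380-1, from 36% on chromosome 10 to 69.9% on chromosome 7. The share of parental differences in the class between ran from 9.26% on chromosome 7 to 16.5% on chromosome 11. Models above both parents ran from 3.9% of tested models on chromosome 11 to 6.73% on chromosome 10, and models below both ran from 2.31% on chromosome 1 to 5.11% on chromosome 6.

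Within chromosomes the state shifted between long stretches. Of 95 windows of 5 Mb with at least 5 models, 30 had a median state under 0.25 (31.6%), 48 lay from 0.25 to 0.75 (50.5%) and 17 lay over 0.75 (17.9%). The plants of EE501F2_093 lay a median of 0.119 apart within a window. The widest gap, 0.436, was on chromosome 12 from 25 to 30 Mb, where the state of 0.93 rests on 7 models. On chromosome 6 the windows from 5 to 25 Mb had states of 0.867, 0.918, 0.931 and 0.92, and in the window from 15 to 20 Mb 31 models were like USDA8380-1 and 6 like M6. On chromosome 7 the windows from 30 to 40 Mb had 0.851 over 35 models and 0.905 over 56, and the next window had 0.344 over 16. The last of these had plants at 0.387, 0.436 and 0.37, under every plant of the windows before it.

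Other stretches near the USDA8380-1 level were chromosome 8 from 25 to 30 Mb, at 0.919 over 47 models, and chromosome 9 from 30 to 35 Mb, at 0.918 over 45. Both were mixed by class, with 84 tested models like USDA8380-1 and 40 like M6 on chromosome 8, and 73 and 36 on chromosome 9. The chromosome 9 window holds g19289, g19285 and g30396, which M6 read and EE501F2_093 did not, or read at the low level of USDA8380-1. Stretches near the M6 level were chromosome 10 from 25 to 30 Mb, at 0.0939 over 65 models, with 33 models like USDA8380-1 and 87 like M6. The first 5 Mb of chromosome 3 had 0.0652 over 45 models. On chromosome 11 both windows from 30 to 40 Mb had 0.115, over 44 and 37 models. These windows hold g1387 and g35455, both classed like M6, and g12591, classed between. Chromosome 2 from 10 to 15 Mb had 0.0427 over 6 models, and chromosome 4 from 15 to 20 Mb had -0.0201 over 8, so these rest on few models.

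**Figure D4:**
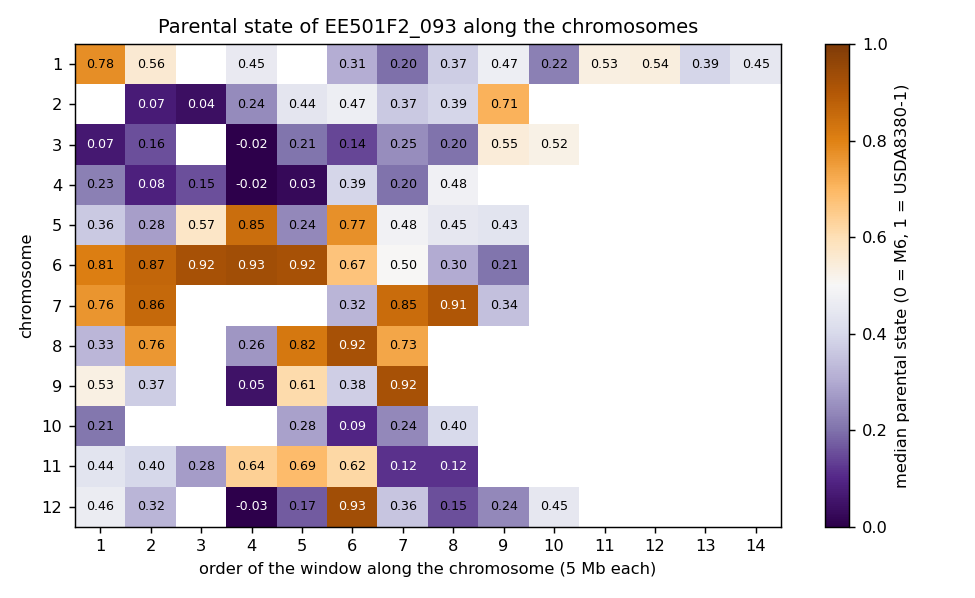
Each cell is a window of 5 Mb, in order along its chromosome, coloured and labelled by the median parental state of EE501F2_093, where 0 is the M6 level and 1 the USDA8380-1 level. Blank cells held fewer than 5 models or none. The highest states are 0.931 on chromosome 6, 0.93 on chromosome 12, 0.919 on chromosome 8, 0.918 on chromosome 9 and 0.905 on chromosome 7. The 0.93 on chromosome 12 rests on 7 models, with plants at 1.06, 0.644 and 1.08. Chromosomes 2, 3, 4, 10 and 11 hold none over 0.75.

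Some long runs of neighbouring models were like the same parent. Among the 6272 models like 1 parent, of which 51.7% were like USDA8380-1, 3518 of 6260 neighbouring pairs on a chromosome were in the same class (56.2%). The share that an unrelated order would give was not computed. Models of other classes were left out first, so neighbours can lie far apart and a run can span other classes. A run of 13 models like M6 on chromosome 2, for example, covers 3775 kb. The runs were mostly short: 34 of 2754 runs held at least 10 models. The longest runs like USDA8380-1 held 31 models on chromosome 7 (chr7:34564455-35561228), 25 on chromosome 6 (chr6:33080066-33922120) and 19 on chromosome 9 (chr9:29811111-30612326). The longest like M6 held 17 models on chromosome 4 (chr4:3296773-3979601), 14 on chromosome 11 (chr11:36483189-36978240) and 14 on chromosome 12 (chr12:49520111-49891903). The chromosome 12 run holds g33589, and the chromosome 9 run holds g19285 and g19289. No test was made of the lengths of runs.

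Models that only 1 parent read were also followed in EE501F2_093. The counts do not tell alleles apart, so they do not show which parent's copy a read came from. With a mean of at least 1 CPM in one parent and 0 counts in the other, 94 models were read in USDA8380-1 alone and 58 in M6 alone. EE501F2_093 was counted as reading a model with at least 3 counts over its 3 plants after thinning to parental depth. It read 64 of the 94 models of USDA8380-1, or 68.1% (exact 95% binomial interval 57.7% to 77.3%). It read 45 of the 58 models of M6, or 77.6% (64.7% to 87.5%). The intervals overlap, and with at least 5 CPM asked of the parent the order of the shares turns, to 72.2% of the models of USDA8380-1 and 60% of those of M6. At full depth it read 68 and 46. Neighbouring models are inherited together, so the models are not independent and the intervals cover counting error only.

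Where EE501F2_093 read such a model, its level was mostly under that of the parent. The median ratio of EE501F2_093 to USDA8380-1 was 0.492 (interquartile range 0.182 to 0.696), with 3 of 64 above 1. The median ratio to M6 was 0.543 (0.399 to 0.945), with 10 of 45 above 1. These ratios cover only the 64 and 45 models that EE501F2_093 read, so models with under 3 counts after thinning are left out of them. Models near 0 with at least 3 counts stay in, such as g23155 at 0.00677 of USDA8380-1 and g7374 at 0.00549 of M6. With at least 10 counts asked of EE501F2_093, it read 59.6% of the models of USDA8380-1 and 72.4% of those of M6.

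By chromosome, EE501F2_093 read all 12 models of M6 on chromosome 1, all 5 on each of chromosomes 5, 11 and 12, 1 of 4 on chromosome 6 and 0 of 4 on chromosome 7. The 4 on chromosome 7 had 1.27 to 5.88 CPM in M6 and at most 0.0115 CPM in EE501F2_093, with 5 counts in all at full depth. Of the models of USDA8380-1, it read 4 of 4 on chromosome 6, 6 of 8 on chromosome 7, 12 of 14 on chromosome 8, 6 of 11 on chromosome 10 and 2 of 5 on chromosome 2. These counts are small, and the order of chromosomes was not tested.

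The USDA8380-1 model with the highest level that EE501F2_093 also read was g26016 (chr8:23398544-23400347, minus strand, 1 exon), with 0.883, 0.293 and 0.63 CPM in EE501F2_093, 13.1, 18.4 and 29.5 CPM in USDA8380-1 and 0 counts in M6. EE501F2_093 lay between the parents, at least 23.4-fold above M6 (adjusted p = 0.00158) and below USDA8380-1 by a log2 fold change of -5.05 ± 0.419 (SE, adjusted p = 1.86e-05). Of the models read in M6 alone and with 0 counts in EE501F2_093, the highest in M6 was g20938 (chr9:7179722-7180509, plus strand, 3 exons), with 0 counts in EE501F2_093, 0 counts in USDA8380-1, and 2.44, 1.55 and 1.37 CPM in M6. EE501F2_093 was at least 118-fold lower than M6 (adjusted p = 0.00014). Models g1387 and g18288, described above, are the corresponding USDA8380-1 model with 0 counts and the M6 model that was read.

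**Figure D5:**
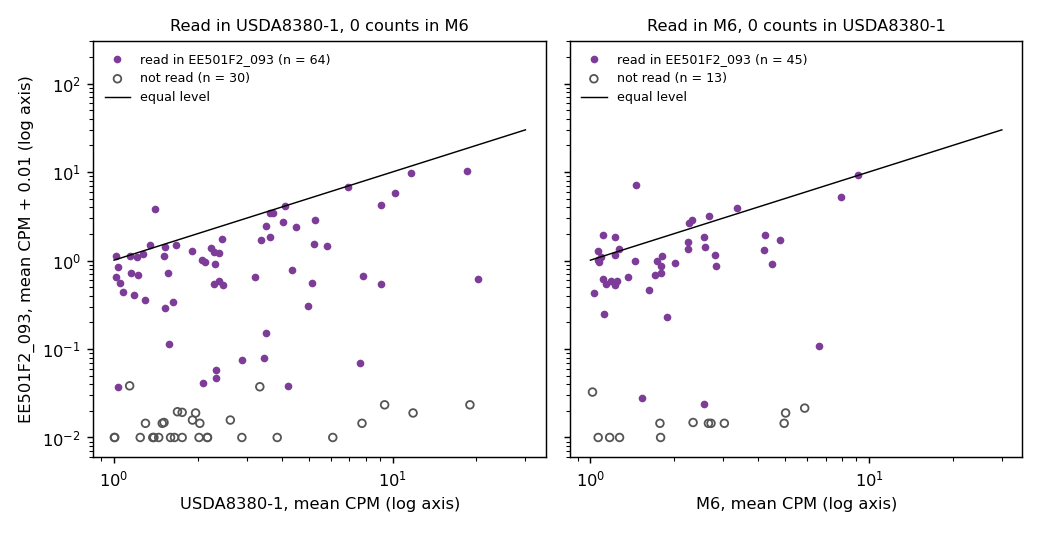
Each point is a model read in USDA8380-1 alone (left, n = 94) or in M6 alone (right, n = 58), by its mean CPM in that parent and its mean CPM plus 0.01 in EE501F2_093, both on log axes. Filled points (64 left, 45 right) were read in EE501F2_093 at parental depth, most of them under the line of equal level.

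EE501F2_093 was also set against the mean of the other 5 F2 lines, in a fit of all 24 libraries that tests each model against the spread between plants. Those lines are EE501F2_089, EE501F2_516 and EE501F2_641, labelled resistant, and EE501F2_099 and EE501F2_500, labelled susceptible. Their mean is of log2 levels, so a line at or near 0 pulls it down. A model called higher can thus lie under some of the lines. At g21266, called higher (edgeR adjusted p = 1.49e-05), EE501F2_093 had 10.8 CPM. No fold is given there because EE501F2_099 was at 0. The other lines had 15.3 CPM in EE501F2_089, 0 in EE501F2_099, 22.9 in EE501F2_500, 8.27 in EE501F2_516 and 17.1 in EE501F2_641. Of 21028 models tested, 7887 differed (37.5%), 4692 higher in EE501F2_093 (22.3%) and 3195 lower (15.2%). At 2-fold or more 3031 differed (14.4%), of which 2161 were higher (10.3%) and 870 lower (4.14%), and at 16-fold or more 59 were higher (0.281%) and 91 lower (0.433%). The 3 plants of EE501F2_641 differed widely from each other, at g28734 for example with 10.4 ± 7.06 CPM (SD, n = 3), and without them 10549 models differed, 4823 of them lower in EE501F2_093. Without the first plant of EE501F2_093 the count was 4978, and with its libraries thinned to the depth of the other F2 lines it was 7605. By chromosome, calls ran from 31.8% of models on chromosome 11 to 42.3% on chromosome 6.

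Over the models that separate the parents, the median state of EE501F2_093 in this fit was 0.404, rank 5 of the 6 F2 lines. The others stood at 0.545 in EE501F2_089, 0.538 in EE501F2_641, 0.454 in EE501F2_500, 0.45 in EE501F2_516 and 0.321 in EE501F2_099. EE501F2_093 had the highest state of the 6 on chromosome 7, at 0.764, against 0.357 to 0.732 in the others. It had the lowest on chromosome 2 (0.385, against 0.396 to 0.85), chromosome 3 (0.194, against 0.204 to 0.605) and chromosome 10 (0.187, against 0.318 to 0.476). On chromosomes 2, 3 and 7 the next line lay within the spread of the plants of EE501F2_093, and the order of lines was not tested.

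The models farthest above the other F2 lines, again where the higher group averaged 5 CPM or more, were both not called different from M6. Model g38430 (chr4:34403576-34403923, minus strand, 2 exons) had 18.7, 24.2 and 30.8 CPM in EE501F2_093, 0.842, 0.518 and 0.987 CPM in USDA8380-1, and 29.2, 15.4 and 27 CPM in M6. The other F2 lines had means of 0.107 CPM in EE501F2_089, 1.74 in EE501F2_099, 0.116 in EE501F2_500, 3.24 in EE501F2_516 and 0.109 in EE501F2_641, all far under EE501F2_093. The log2 fold change was 6.12 ± 0.458 (SE, adjusted p = 1.68e-08). Model g2554 (chr1:45034324-45035700, plus strand, 2 exons) had 4.58, 4 and 9.49 CPM in EE501F2_093, 0.659, 1.71 and 1.74 CPM in USDA8380-1, and 5.36, 1.84 and 3.57 CPM in M6. The other F2 lines had means of 0.142 CPM in EE501F2_089, 0.9 in EE501F2_099 and 2.44 in EE501F2_516, with 0 counts in EE501F2_500 and EE501F2_641 (adjusted p = 9.13e-07). No fold is given for it because 2 of those lines were at 0.

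Under that limit, the models farthest below the other F2 lines had no count in EE501F2_093. Model g21090 (chr6:20762038-20762469, minus strand, 1 exon) had 0 counts in EE501F2_093, 0.0366, 0 and 0 CPM in USDA8380-1, and 5.63, 7.03 and 5.39 CPM in M6. The other F2 lines had means of 20.4 CPM in EE501F2_089, 15.7 in EE501F2_099, 5.82 in EE501F2_500, 4.78 in EE501F2_516 and 1.84 in EE501F2_641 (adjusted p = 1.97e-05). At g30396, described above, they had means of 12.8 CPM in EE501F2_089, 6.21 in EE501F2_099, 4.48 in EE501F2_500, 3.56 in EE501F2_516 and 4.54 in EE501F2_641, against 0 counts in EE501F2_093 (adjusted p = 7.15e-06). At both models EE501F2_093 stood with USDA8380-1, while the mean of each other F2 line was above 1 CPM. The plants of EE501F2_641 were widely spread, with 1.84 ± 3.08 CPM at g21090 and 4.54 ± 3.95 CPM at g30396 (SD, n = 3). Its means therefore do not stand for each of its plants.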

How the data were processed

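The deposited table holds the authors' raw counts for every gene model, with exon coordinates and, in another unit, the exonic length in bases, which entered no test. Per the submitters' processing notes the tools were Trimmomatic 0.35, STAR 2.6.0, Subread, featureCounts 1.5.3 and DESeq2, with no role or order. The sources used here do not give the genome build, annotation, strand setting or treatment of multi-mapping reads. Reads of near-identical copies could therefore not be told apart. All count columns matched a library. The 7954 models on an unplaced sequence had 0 counts in these 9 libraries, and 5266 of the 9484 chromosome models left out of tests had counts, at most 0.03352% of any library's total.

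For the 9 libraries, edgeR 4.0.16 in R 4.3.3 was used (TMM scaling, filterByExpr, 1 mean per line, quasi-likelihood test, 6 residual degrees of freedom, Benjamini-Hochberg adjustment over all tested models, called at an adjusted p under 0.05). They were fitted alone to keep out the spread between plants of EE501F2_641. SE is the absolute log2 fold change divided by the square root of F. CPM are TMM-scaled; the parental state used a prior count of 2. Models named per contrast with a parent or with the other F2 lines had at least 5 CPM in the higher group and the 2 largest changes each way, those outside the parents the largest smaller change (at that limit in EE501F2_093, or in each parent where below both), and those of the other classes the smallest p per parental direction; of those read in 1 parent alone, the most abundant read and the most abundant with 0 counts were named. The script was tested on simulated data. Replicates differed by more than counting noise (chi-square per degree of freedom 11.11 to 58.95), so each counted as 1 sample. Alternatives were other scaling, filters, libraries, depth, call rules, DESeq2 1.42.0 and a replicate block. The members and lists were chosen with earlier results of these data known. Gene lists and tissue markers that had been written down could not be tested for want of gene names.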

Additional observations from a re-analysis of the deposited data

How the results depend on the processing

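Scaling by DESeq2 size factors, the DESeq2 test, thinning, the replicate block and adjustment over the 3 contrasts together kept every count of calls and of classes within 1.5 times; thinning all 9 libraries to the smallest gave 6623 models against USDA8380-1 and 6840 against M6. Replicate numbers did not pair the samples (correlations of same-numbered deviations -0.2373 to 0.1077). With the replicate block, 6301 models were called against USDA8380-1, 6450 against M6, 9485 between the parents and 7721 against the other F2 lines, with 1026 above both, 624 below both and 1063 between.

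With 24 libraries in the fit the counts were 4564 against USDA8380-1, 4480 against M6, 497 above both, 354 below both and 526 between; with 21, without EE501F2_641, 741 were above both, and 4823 models were lower against the other F2 lines. The cause was not tested. Asking for a 2-fold change as well, which by construction calls fewer models, left 3270 against USDA8380-1, 3214 against M6 and 4845 between the parents, with 554 above both, 257 below both, 414 between, 1475 like USDA8380-1, 1597 like M6, 1163 not placed, 962 different from 1 parent alone and 13880 with no difference. Without a filter, more models were tested and 12172 showed no difference. The median parental state was 0.477 with parental differences of at least 2-fold, and, at 5 CPM or more in the parent, 72.2% of USDA8380-1 models and 60% of M6 models were read; the causes were not tested.

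Leaving out 1 library at a time gave 5359 to 7635 models against USDA8380-1, 5513 to 7137 against M6, 8632 to 10092 between the parents, 876 to 1118 above both, 527 to 756 below both, 850 to 1202 between, 2691 to 3238 like USDA8380-1, 2450 to 3390 like M6, 8118 to 9247 with no difference and a state of 0.392 to 0.447, the highest without M6 plant 3. Without the first plant of EE501F2_093 the ranges reached their ends at 2901 not placed (lowest 1563) and 1041 different from 1 parent alone (highest 1851). Against the other F2 lines it gave 4978 (highest 5943).

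Of 864 values of the named models under the alternatives, 853 kept direction and call. The 10 that changed sign were small and uncalled. At g18288 against M6 they were -0.00129 with DESeq2 size factors, -0.000888 with DESeq2, -0.0115 with all libraries thinned and -0.00657 with the block, and -0.11 to 0.162 leaving out a library. The same range was -0.255 to 0.31 at g19285 against USDA8380-1 and -0.192 to 0.209 at g38430 against M6. The last was g21266 against USDA8380-1, under 2-fold. The single-exon share above both, recomputed after seeing the data, ran from 25.5% to 29.8% and was 36.3% at 2-fold or more.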

Other observations

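A few models were present or absent in EE501F2_093 against both parents at once. They were picked after their values were seen. At a mean of at least 1 CPM, EE501F2_093 read 2 models that had 0 counts in all 6 parental libraries. Model g29450 (chr3:30497542-30498616) had 0.883, 0.603 and 1.77 CPM in EE501F2_093, or 225 counts (edgeR adjusted p = 0.00158 against USDA8380-1 and 0.00111 against M6). Model g32046 (chr9:6133877-6137261) had 1.2, 1.36 and 1.62 CPM, or 282 counts (edgeR adjusted p = 0.00028 against USDA8380-1 and 0.000199 against M6). After thinning to parental depth they kept 103 and 121 counts. That they stood above the limit that a count of 0 allows follows from the rule that picked them. The p-values rest on the same values and add no support.

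The reverse, 0 counts in EE501F2_093 and a mean of at least 1 CPM in both parents, held at 2 models. Without that limit on the parental level, 15 of the 735 models below both parents had 0 counts in EE501F2_093. Model g23084 (chr6:739101-741550) had 1.9, 1.36 and 1.11 CPM in USDA8380-1 and 1.59, 2.04 and 1.77 CPM in M6 (edgeR adjusted p = 9.63e-06 against USDA8380-1 and 8.44e-06 against M6). Model g29273 (chr11:8295035-8296592) had 1.5, 1.32 and 1.7 CPM in USDA8380-1 and 7.79, 8.7 and 7.78 CPM in M6 (edgeR adjusted p = 1.03e-06 against USDA8380-1 and 1.61e-07 against M6). A count of 0 over the 3 libraries of EE501F2_093 allows up to 0.01481 CPM, by counting error only, far under the parental levels. This too follows from the rule that picked the models, and their p-values add no support.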
